A study of Mus musculus with 24 samples.

Results

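The BMP ligands and the proteins that block them were followed across the jaws of mouse embryos at embryonic day 14.5 (E14.5). The genes were chosen by symbol: the ligands Bmp2, Bmp3, Bmp4, Bmp5, Bmp6 and Bmp7, the secreted antagonists Nog, Grem1 and Chrd, and the decoy receptor Bambi. Of these 10 genes, 9 had a probe set annotated to that symbol alone and all 9 passed the filter on low signal, among 13942 genes tested of 18193 on the array. Bmp3 had no such probe set and was not analysed here. Bmp5 and Bmp7 each had 3 probe sets and the others had 1, which made 13 in all; a gene was represented by the probe set with the highest mean over the arrays. The mutant embryos came from matings of Wnt1cre;Alk5fl/+ with Alk5fl/fl mice, and were told from their littermates by a cleft palate and defective calvaria. Alk5 is the TGF-beta type I receptor, whose gene symbol is Tgfbr1, and Wnt1-Cre acts in the neural crest lineage, so that epithelium, muscle, vessels and blood cells of a mutant jaw keep the receptor. Controls were littermates whose genotype is not described further, so whether they carried the Cre or 1 floxed allele is not known. All embryos were on a C57B6 background. Each jaw was cut into a distal and a proximal end, which the labels call distal and proximal bone, and the 2 genotypes, 2 jaws and 2 ends gave 8 groups of 3 arrays. Each array took 5 µg of total RNA from 1 sample, and whether a sample came from 1 embryo or from several is not stated. The p-values measure the spread between arrays of a group. The fit counted all arrays as independent, although arrays of 1 genotype with the same sample number may come from the same embryos.

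BMPs are secreted dimers of the TGF-beta superfamily that bind type I and type II serine/threonine kinase receptors, after which SMAD1, SMAD5 and SMAD8 are phosphorylated and enter the nucleus with SMAD4. Noggin, chordin and gremlin bind BMPs outside the cell and keep them from their receptors, and BAMBI is a membrane protein that resembles a type I receptor without the kinase domain. In the embryonic jaw, BMP4 from the distal epithelium and mesenchyme is known for setting Msx gene expression and for tooth and midline development, and BMP signals are known for driving cartilage and bone formation. TGF-beta signals through ALK5 use SMAD2 and SMAD3, which share SMAD4 with the BMP branch.

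Promoter sequences from RefSeq (mouse build GRCm38.p6), reaching from 250 bases before to 50 bases after the annotated start, were at hand for 5 of the genes, Bmp4, Bmp5, Bmp6, Chrd and Grem1. Those of Bmp5, which was lower in the mutant, of Grem1, which was lower in the mutant mandible, and of Bmp4, which was higher in the mutant distal mandible, are shown 5′ to 3′ on the strand of the gene. Capitals mark matches on either strand to the SMAD box CAGAC, which reads GTCTG when it lies on the other strand, or to the GC-rich element GGCGCC.
Bmp5 promoter: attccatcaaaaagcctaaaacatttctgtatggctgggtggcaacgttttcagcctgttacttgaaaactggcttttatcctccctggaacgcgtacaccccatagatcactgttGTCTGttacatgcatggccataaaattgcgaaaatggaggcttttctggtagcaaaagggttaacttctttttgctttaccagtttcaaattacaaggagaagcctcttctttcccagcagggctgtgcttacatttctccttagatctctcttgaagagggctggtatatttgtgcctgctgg
Grem1 promoter: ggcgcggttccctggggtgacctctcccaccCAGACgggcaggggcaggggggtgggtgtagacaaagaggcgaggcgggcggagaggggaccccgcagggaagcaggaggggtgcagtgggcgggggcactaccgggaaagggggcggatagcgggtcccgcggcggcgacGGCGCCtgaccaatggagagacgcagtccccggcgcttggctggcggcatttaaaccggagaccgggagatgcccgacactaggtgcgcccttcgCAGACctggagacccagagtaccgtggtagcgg
Bmp4 promoter: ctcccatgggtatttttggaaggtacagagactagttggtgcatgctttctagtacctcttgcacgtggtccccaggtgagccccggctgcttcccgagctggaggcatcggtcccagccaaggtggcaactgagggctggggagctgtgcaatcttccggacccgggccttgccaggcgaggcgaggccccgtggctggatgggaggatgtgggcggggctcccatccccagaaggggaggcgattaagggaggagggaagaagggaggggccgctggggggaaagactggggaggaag
The Bmp5 window is chr9:75775115-75775414 on the plus strand, the Grem1 window is chr2:113758599-113758898 on the minus strand and the Bmp4 window is chr14:46390620-46390919 on the minus strand. Bmp5 held 1 CAGAC, on the strand opposite to the gene, with its first base at position -134 from the start. Grem1 held 2, at positions -219 and 18, and 1 GGCGCC at -78. Bmp4 held none of these letters, nor did any of the 3 windows hold TATAAA, the third motif searched. Of the windows not shown, Bmp6 held 1 CAGAC at -119. Chrd held 1 CAGAC at 8, on the opposite strand, and 1 GGCGCC at -203. Neither gene had a called genotype change. Among all 32851 mouse promoter windows of 300 bases, 49.6% held CAGAC, 11.9% held GGCGCC and 13.6% held TATAAA, so a match is common and describes the sequence alone. The GC content was 43.3% in Bmp5, 70.7% in Grem1 and 64.0% in Bmp4, beside a median of 52.7% over all windows.

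Signals are log2 values after robust multi-array averaging (RMA), and array medians lay between 7.03 and 7.12. Mutant distal maxilla 3 stood nearer to the mutant distal mandible than to its own group (mean correlations 0.976 and 0.9725), as mutant proximal maxilla 3 did to the mutant proximal mandible (0.9811 and 0.9688). The level of Xist, which is transcribed from an inactive X chromosome, followed the sample number through all 4 regions: it was 13.53 to 13.67 in the controls numbered 1 and 6.23 to 7.49 in those numbered 2 and 3. Among mutants it was 13.03 to 13.39 in number 2, while numbers 1 and 3 held both Xist (11.15 to 12.79) and Y-linked transcripts (8.51 to 10.01). Tgfbr1 itself was 0.26 ± 0.04 (SE) higher in the mutant, and whether its probe set lies in the deleted part is not known, so it does not check the labels. Markers of differentiated skeletal tissue were lower in the mutant: over the 4 regions, 7 of 8 cartilage genes tested and 5 of 5 bone genes fell, with medians of -2.07 and -1.06, while 4 of 7 oral and dental epithelium genes rose (median 0.52). Of all genes, 15.3% were called lower and 25.2% higher in the mean of the 4 regions. The log2 summed level of the cartilage markers ran from 13.1 to 15.66 in controls and from 11.73 to 14.48 in mutants. In bulk tissue, fewer cells of a type and less RNA per cell cannot be told apart.

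Here a gene is called when its p-value from limma, adjusted over all 13942 genes, is under 0.05. In the mutant distal mandible 3 of the 9 genes were called, Bmp4 and Bmp7 higher and Bmp5 lower, where 16.0% of all genes were called. The proximal mandible gave 4 of 9, with Bmp7 higher and Bmp5, Grem1 and Bambi lower, against 19.9% of all genes. The distal maxilla gave 1 of 9, Bmp5, against 2.96%, and the proximal maxilla gave 2 of 9, Bmp2 and Bmp5, both lower, against 10.5%. Averaged over the 4 regions, Bmp4 and Bmp7 were called higher and Bmp5 and Grem1 lower, 4 of 9 where 40.6% of all genes were called (25.2% higher and 15.3% lower). That share of the genes is close to the background of the mean effect. The median change over the 9 genes was 0.07 and -0.16 at the distal and proximal ends of the mandible, 0.11 and -0.19 at those of the maxilla, and -0.05 in the mean, beside medians over all genes of 0.038, 0.039, 0.041, 0.026 and 0.022. The genes thus moved in both directions, and Bmp5 was called in all 4 regions, though in the distal maxilla the call depended on the setting.

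**Figure D1:**
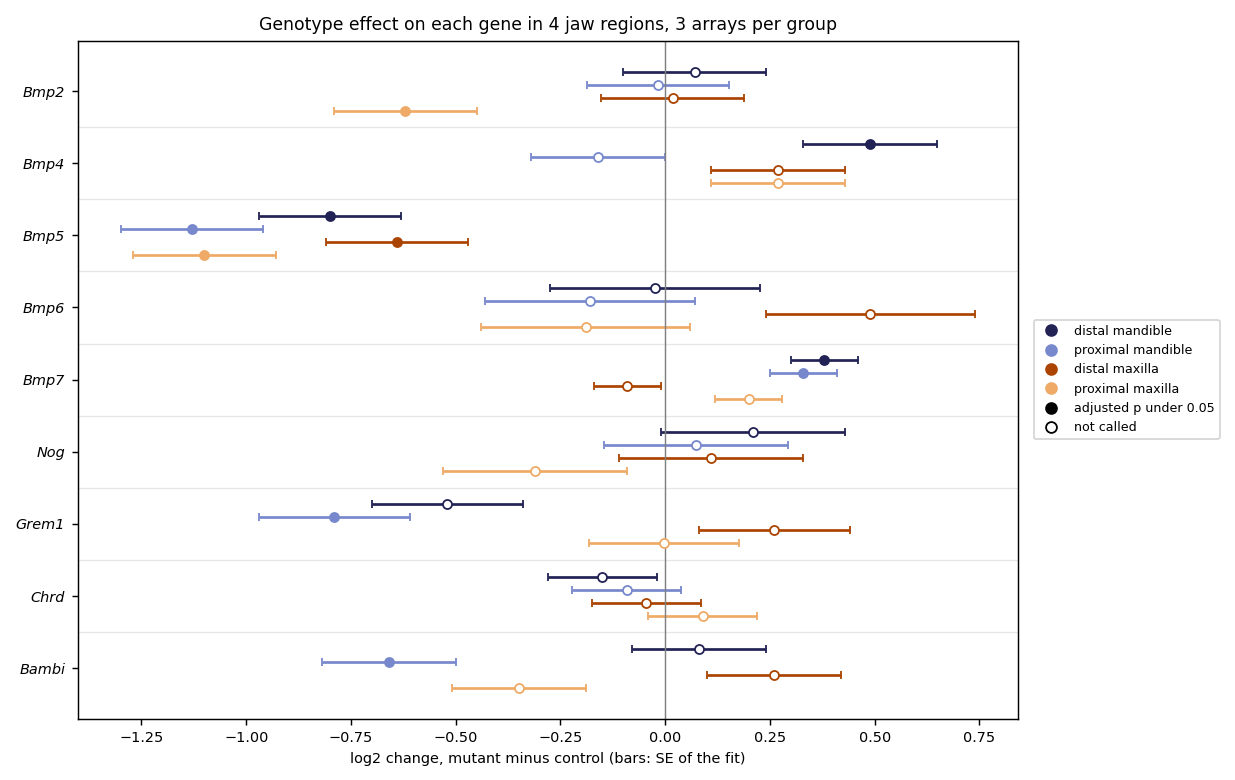
Log2 change, mutant minus control, of the 9 genes (vertical axis) in the 4 jaw regions (colours), each from 3 control and 3 mutant arrays; bars are standard errors of the fit and filled points have an adjusted p under 0.05. The 4 filled points of Bmp5 lie between -1.13 and -0.64, and Grem1 lies at -0.52 and -0.79 in the mandible but at 0.26 and -0.003 in the maxilla.

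Bmp5, a ligand known for its part in skeletal patterning and external ear shape, was lower in the mutant in every region. In control arrays 1, 2 and 3 the distal mandible gave log2 signals of 10.04, 9.88 and 9.89, and the mutant arrays gave 9.38, 9.07 and 8.97. All 3 mutant arrays lay below all 3 controls, and Bmp5 fell by 0.80 ± 0.17 on the log2 scale (1.74-fold, adjusted p = 0.00376). The proximal mandible went from 9.86, 9.92 and 9.59 in controls to 8.66, 8.51 and 8.82 in mutants, with no overlap and a gap wider than the spread of either group. There Bmp5 fell by 1.13 ± 0.17 (2.18-fold, adjusted p = 0.00013). In the proximal maxilla the controls were at 10.14, 10.17 and 10.18 and the mutants at 9.18, 9.22 and 8.79, again with no overlap, and Bmp5 fell by 1.10 ± 0.17 (2.15-fold, adjusted p = 0.000582).

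The distal maxilla was the region where Bmp5 was least separated. Its controls gave 10.37, 10.39 and 9.57 and its mutants 9.38, 9.40 and 9.63, so that control array 3 fell among the mutants. Bmp5 fell by 0.64 ± 0.17 there (1.56-fold, adjusted p = 0.0474). Control distal maxilla 3 also had the lowest cartilage marker sum of all controls, 13.1 against 15.09 and 15.47 in arrays 1 and 2 of its group. Its bone, muscle and epithelial sums (14.11, 12.36 and 15.43) were the highest of that group. Without that array the change was -0.91 ± 0.14 (adjusted p = 0.00248); without control 1, control 2, mutant 1 or mutant 2 it was -0.51, -0.50, -0.60 or -0.61 and was not called (adjusted p from 0.102 to 0.19). Leaving out mutant array 3 gave -0.72 (adjusted p = 0.0365). With all arrays the call was also lost with no filter (adjusted p = 0.0522), with the mean of the probe sets (0.084), with sample number as a random block (0.0549) and when fitted on those 6 arrays alone (0.398).

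Over all regions Bmp5 ran from 9.57 to 10.39 (median 9.98) in the 12 control arrays and from 8.51 to 9.63 (median 9.12) in the 12 mutant arrays. Mutant distal maxilla 3 was the 1 mutant array above any control, lying over control distal maxilla 3 (9.57) and control proximal mandible 3 (9.59). The mean of the 4 regional changes was -0.92 ± 0.09 (1.89-fold lower, adjusted p = 2.41e-07). When the 4 regions of each sample number were averaged first, which leaves 3 values per genotype, the change was the same and remained called (adjusted p = 0.00346). The other 2 probe sets of Bmp5, at lower mean signals of 8.42 and 7.35, gave regional changes from -0.57 to -1.03, lower in the mutant in each region. Ordered by mean, the 4 control groups (9.79 to 10.16) stood above the 4 mutant groups (8.66 to 9.47), and every neighbouring pair in that order overlapped.

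**Figure D2:**
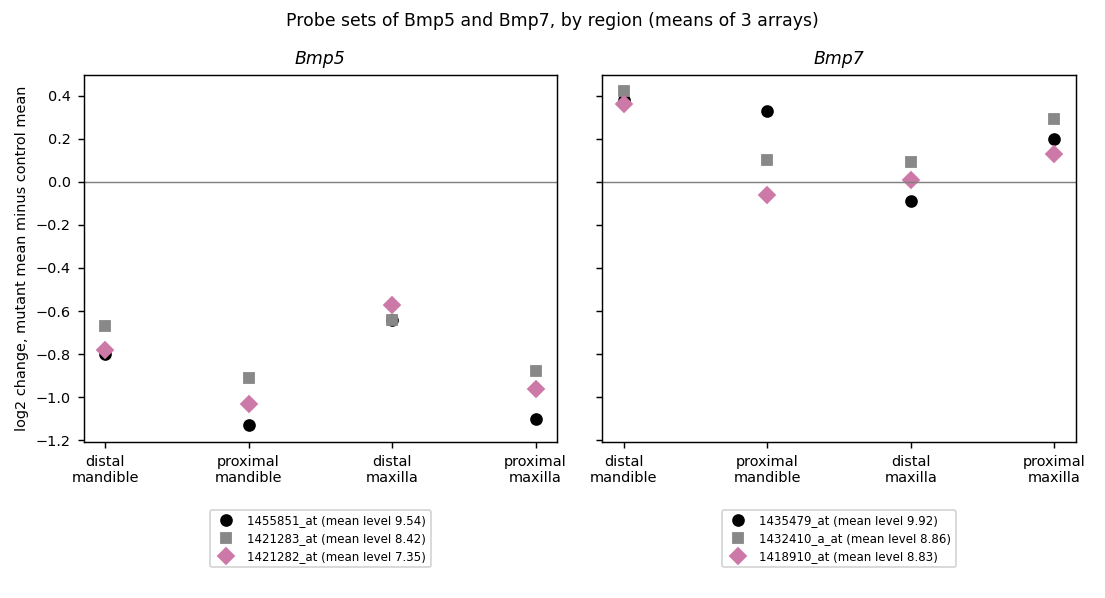
Mutant mean minus control mean (log2, 3 arrays per group) for the 3 probe sets of Bmp5 and the 3 of Bmp7, by region. The 3 Bmp5 probe sets lie between -0.57 and -1.13 in every region, whereas the Bmp7 probe sets lie between 0.36 and 0.42 in the distal mandible and between -0.06 and 0.33 in the proximal mandible.

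Bmp4, the ligand of the distal jaw that acts with Msx genes in tooth and mandible development, was higher in the mutant distal mandible. Its control signals there were 11.36, 11.57 and 11.32 and its mutant signals 11.84, 12.17 and 11.71. The groups did not overlap, and Bmp4 rose by 0.49 ± 0.16 (1.4-fold, adjusted p = 0.04). The call was lost without control 1, control 3, mutant 1 or mutant 2, with changes of 0.46, 0.44, 0.52 and 0.36 and adjusted p from 0.0658 to 0.211. In the proximal mandible the control arrays (10.77, 10.91 and 10.76) and the mutant arrays (10.37, 10.90 and 10.67) overlapped, with a change of -0.16 and a 95% interval from -0.49 to 0.17. The distal and proximal maxilla each gave 0.27 ± 0.16, with adjusted p of 0.317 and 0.281 and overlapping arrays.

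The mean change of Bmp4 over the 4 regions was 0.22 ± 0.08 (1.16-fold higher, adjusted p = 0.0323). That call was not kept with sample number as a random block (adjusted p = 0.116) or with the regions averaged first (0.162). It was also lost (0.17 to 0.21, adjusted p from 0.0508 to 0.0659) without control distal mandible 1 or 3, control proximal mandible 1 or 3, control distal maxilla 3, mutant distal mandible 2, mutant proximal mandible 2, mutant distal maxilla 2, or mutant proximal maxilla 1 or 2. By level, the mutant distal mandible (mean 11.91) stood apart above the control distal mandible (11.42), and the other neighbours in the order, down to the control proximal maxilla (10.40), overlapped.

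Bmp7, a ligand of epithelium and mesenchyme known for its role in palate and tooth development, was higher in both ends of the mutant mandible. The distal mandible gave 9.73, 9.79 and 9.67 in controls and 10.07, 10.20 and 10.07 in mutants. With no overlap, Bmp7 rose by 0.38 ± 0.08 (1.3-fold, adjusted p = 0.00352), and its 3 probe sets gave 0.38, 0.42 and 0.36. The proximal mandible gave 9.33, 9.60 and 9.35 in controls and 9.66, 9.81 and 9.80 in mutants, also apart, a rise of 0.33 ± 0.08 (1.26-fold, adjusted p = 0.00666). There the probe sets differed: the other 2 gave 0.10 and -0.06, and the mean of the 3 gave 0.12, which was not called (adjusted p = 0.499). Fitted on the arrays of the proximal mandible alone, the change was not called either (adjusted p = 0.0673).

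In the maxilla Bmp7 showed no called change. The distal maxilla had 10.28, 10.35 and 10.31 in controls and 10.12, 10.23 and 10.31 in mutants, a change of -0.09 with a 95% interval from -0.26 to 0.08. The proximal maxilla had 9.70, 9.99 and 9.73 in controls and 10.01, 10.04 and 9.96 in mutants. The change of 0.20 ± 0.08 was not called (adjusted p = 0.126). It was called without control proximal maxilla 2, the highest of the controls (0.29, adjusted p = 0.0332), and with sample number as a fixed block (0.20 ± 0.06, adjusted p = 0.0386). That block joins controls and mutants of the same number, which the number is not known to pair. The mean over the 4 regions was 0.20 ± 0.04 (1.15-fold higher, adjusted p = 0.000547; 0.0743 with the regions averaged first). The genotype effect differed between the jaws by 0.30 ± 0.08, larger in the mandible (adjusted p = 0.0303), in a comparison where 6.76% of all genes and 2 of the 9, Bmp7 and Grem1, were called. That difference also rests on the probe set, since the mean of the 3 gave 0.15 (adjusted p = 0.459). It was lost (0.28 or 0.29, adjusted p up to 0.0628) without control distal mandible 3, control proximal mandible 1 or 3, mutant distal mandible 2, mutant proximal mandible 2, mutant distal maxilla 1 or mutant proximal maxilla 3.

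Bmp2, a ligand known for bone formation and for the enamel knot of teeth, was called in the proximal maxilla alone of the 4 regions. Controls there gave 10.21, 10.17 and 10.19 and mutants 9.76, 9.78 and 9.16, with array 3 of the mutants the lowest of all 24. Bmp2 fell by 0.62 ± 0.17 (1.54-fold, adjusted p = 0.0235). That array also had the lowest cartilage marker sum of all (11.73) and the highest muscle and bone sums of its group (14.8 and 12.55). Without it the change was -0.42 (adjusted p = 0.159), and without control 1 or 3 it was -0.61 or -0.62 (adjusted p = 0.0646 and 0.068). The call was also lost with array weights (-0.50, adjusted p = 0.0508) and when fitted on those 6 arrays alone (0.113). In the other regions the changes were 0.07, -0.017 and 0.018, each with a standard error of 0.17, and the arrays overlapped. Mandible and maxilla differed in this genotype effect by 0.33 ± 0.17 (adjusted p = 0.276).

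Bmp6, a ligand known for cartilage hypertrophy and iron regulation, had no called genotype change. Its changes were -0.024 and -0.18 at the distal and proximal ends of the mandible and 0.49 and -0.19 at those of the maxilla, each ± 0.25, and the mean was 0.025 (95% interval -0.23 to 0.28). The distal maxilla, with the largest of these, held 9.12, 8.48 and 8.89 in controls and 9.21, 8.95 and 9.79 in mutants, which overlapped. Mutant distal maxilla 3, which resembled the mandible, was the highest of that group.

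**Figure D3:**
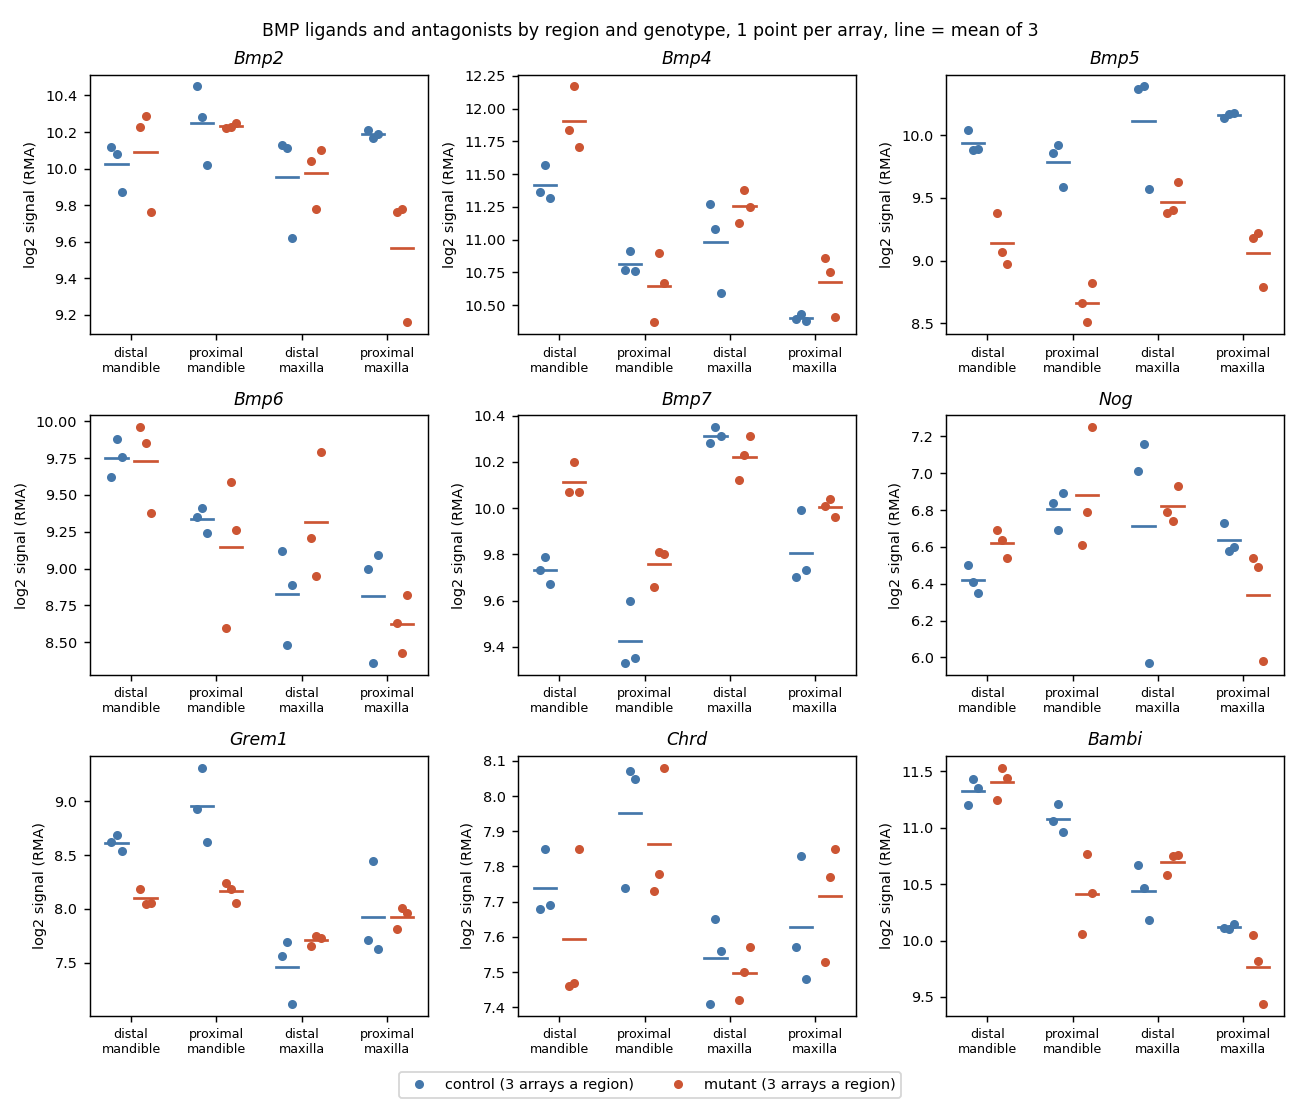
Log2 signal of each of the 9 genes (1 panel each, own vertical scale) in the 4 regions, 1 point per array and a line at the mean of 3, controls blue and mutants red. Bmp5 is lower in the mutants of each region with overlap in the distal maxilla alone, and Grem1 in the control mandible (8.54 to 9.31) lies above its mutants (8.05 to 8.24).

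Grem1 encodes gremlin, a secreted antagonist that binds BMP2, BMP4 and BMP7 in particular, and it was lower in the mutant mandible. The proximal mandible gave 8.93, 9.31 and 8.62 in controls and 8.24, 8.19 and 8.06 in mutants. The groups lay apart, and Grem1 fell by 0.79 ± 0.18 (1.73-fold, adjusted p = 0.0041). In the distal mandible controls gave 8.62, 8.69 and 8.54 and mutants 8.19, 8.05 and 8.06, also apart, with a change of -0.52 ± 0.18 that missed the threshold (adjusted p = 0.0568). It was called there under 4 alternatives: with array weights (0.00873), with sample number as a fixed block (0.018) or a random block (0.0343), and when fitted on those 6 arrays alone (0.0033). The fixed block joins controls and mutants of the same number, which the number is not known to pair.

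The maxilla differed. Its distal end gave 7.56, 7.69 and 7.12 in controls and 7.66, 7.75 and 7.73 in mutants, and its proximal end gave 7.71, 8.45 and 7.63 in controls and 7.81, 8.01 and 7.96 in mutants. The changes of 0.26 (95% interval -0.12 to 0.64) and -0.003 (-0.38 to 0.38) were not called. The genotype effect on Grem1 was 0.79 ± 0.18 lower in the mandible than in the maxilla, written -0.79 (adjusted p = 0.0134). Without mutant distal and proximal maxilla 3, the 2 arrays nearer to the mandible, it was -0.77 (adjusted p = 0.0304). The mean over the 4 regions was -0.27 ± 0.09 (1.2-fold lower, adjusted p = 0.0256); it lost its call without control proximal mandible 2 (-0.22, adjusted p = 0.0521), with a random block (0.0723) and with the regions averaged first (0.216). By mean level, both mutant mandible groups (8.10 and 8.16) fell between the control mandible (8.62 and 8.96) and the maxilla groups (7.46 to 7.93). The arrays overlapped with the maxilla, since control proximal maxilla 2 (8.45) lay above every mutant mandible array (8.05 to 8.24).

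Bambi, the decoy receptor, which is itself known as a target of BMP signals, was lower in the mutant proximal mandible. Controls there gave 11.06, 11.21 and 10.96 and mutants 10.06, 10.77 and 10.42. All mutants lay below all controls, and Bambi fell by 0.66 ± 0.16 (1.58-fold, adjusted p = 0.00548). The proximal maxilla gave 10.11, 10.10 and 10.15 in controls and 10.05, 9.82 and 9.44 in mutants, apart but not called (-0.35 ± 0.16, adjusted p = 0.155). At the distal ends the changes were 0.081 in the mandible and 0.26 in the maxilla, neither called. The mean effect was -0.17 ± 0.08 (adjusted p = 0.0971) and was called under several alternatives: with quantile normalization (-0.20, adjusted p = 0.0418), with array weights (-0.18, 0.0293), and without control distal maxilla 3 (-0.20, 0.0465), mutant proximal mandible 2 (-0.21, 0.0252) or mutant proximal maxilla 1 (-0.20, 0.0407).

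The difference of these changes, distal minus proximal ends, was 0.67 ± 0.16 for Bambi (95% interval 0.35 to 1.0), with an unadjusted limma p of 0.000381. After limma's adjustment over all genes it was not called (adjusted p = 0.123), and it was with sample number as a random block (0.0433) and without mutant proximal mandible 2 (0.76, adjusted p = 0.041). Of the 9 genes, 0 were called in that comparison, where 0.115% of all genes were; 3 had an unadjusted p under 0.05, where 8.41% of all genes had. The other 2 were Bmp2 and Bmp5, with differences of 0.36 ± 0.17 and 0.39 ± 0.17 (adjusted p = 0.577 and 0.532). The median difference over the 9 genes was 0.33, beside 0.011 over all genes.

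Nog encodes noggin, which binds BMP2 and BMP4 tightly, and Chrd encodes chordin, which is cleaved by tolloid proteases. Nog lay near the filter level of 6.33 to 6.47, between 5.97 and 7.25 over the 24 arrays. Its regional changes were 0.21, 0.074, 0.11 and -0.31, each ± 0.22, and its mean change was 0.02 (95% interval -0.21 to 0.25). The proximal maxilla held 6.73, 6.58 and 6.60 in controls and 6.54, 6.49 and 5.98 in mutants, apart but not called (adjusted p = 0.408). The distal mandible was apart the other way, with 6.5, 6.41 and 6.35 in controls and 6.69, 6.64 and 6.54 in mutants (adjusted p = 0.591). Chrd lay between 7.41 and 8.08 and changed by -0.15, -0.092, -0.045 and 0.09, with a mean of -0.048 (95% interval -0.19 to 0.09). No change of either gene in the 4 regions or their mean was called, and these intervals do not show that the genes were equal.

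Control jaws alone showed where each gene is normally higher. Between control mandible and control maxilla (6 arrays each), 6 of the 9 genes were called where 34.7% of all genes were, and the median difference was 0.27 beside 0.012 over all genes. Grem1 was 1.09 ± 0.13 higher in the mandible (2.14-fold, adjusted p = 2.87e-06), Bambi 0.92 ± 0.11 (1.89-fold, adjusted p = 3.76e-06), Bmp6 0.72 ± 0.18 (1.64-fold, adjusted p = 0.00324) and Bmp4 0.43 ± 0.11 (1.34-fold, adjusted p = 0.00518). Chrd was 0.27 ± 0.09 higher (adjusted p = 0.0325), and that call was lost (0.23 to 0.25, adjusted p up to 0.0837) without control distal mandible 2, control proximal mandible 2 or 3, control distal maxilla 1, or control proximal maxilla 1 or 3. Bmp7 went the other way and was 0.48 ± 0.06 higher in the maxilla (1.39-fold, adjusted p = 3.61e-06). Bmp5 was 0.28 ± 0.12 higher in the maxilla, not called (adjusted p = 0.0864), but called with quantile normalization (adjusted p = 0.0446), with array weights (0.000822) and without control distal maxilla 3 (0.41 higher in the maxilla, written -0.41, adjusted p = 0.00186). The dissected tissue differed as well: all 7 muscle markers tested and 4 of 5 bone markers were higher in the control mandible and 4 of 5 neuron markers higher in the control maxilla, and their part in these differences was not tested.

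**Figure D4:**
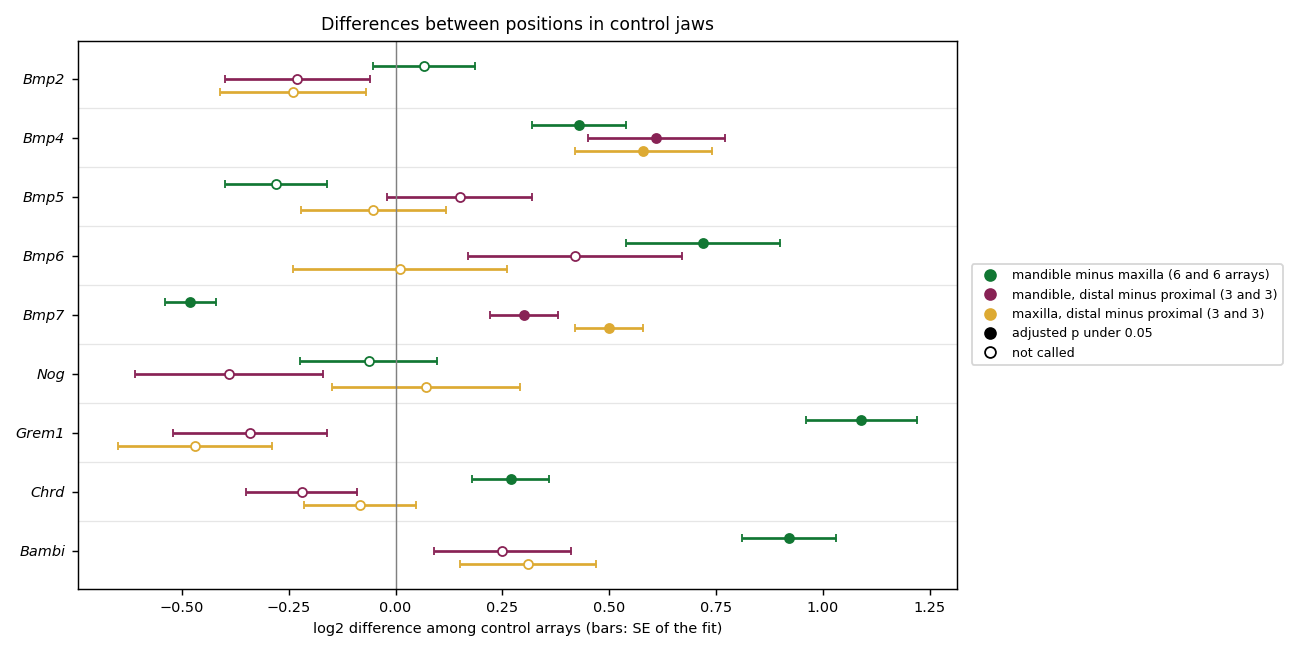
Log2 differences among control arrays for the 9 genes: mandible minus maxilla (6 and 6 arrays) and distal minus proximal in each jaw (3 and 3 arrays), with bars for the standard error of the fit and filled points for an adjusted p under 0.05. Grem1 (1.09) and Bambi (0.92) lie farthest to the mandible side, Bmp7 (-0.48) to the maxilla side, and Bmp4 and Bmp7 are filled on the distal side in both jaws.

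Between the ends of a control jaw, Bmp4 and Bmp7 were higher distally in both jaws. In the mandible these were 2 of 9 genes where 5.45% of all genes were called, and in the maxilla 2 of 9 where 10.9% were. Bmp4 was 0.61 ± 0.16 higher in the distal mandible (1.52-fold, adjusted p = 0.0259) and 0.58 ± 0.16 in the distal maxilla (1.49-fold, adjusted p = 0.0218), with the arrays of the ends apart in each jaw. Bmp7 was 0.30 ± 0.08 higher in the distal mandible (1.23-fold, adjusted p = 0.033) and 0.50 ± 0.08 in the distal maxilla (1.42-fold, adjusted p = 0.000368), also apart. The mandible call of Bmp7 rests on its main probe set, the mean of the 3 giving 0.18 (adjusted p = 0.51).

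Most of these calls between ends did not hold when an array was left out. Leaving out any of 5 of the 6 arrays ended the call of Bmp4 in the mandible (0.53 to 0.66, all but control distal mandible 3) and in the maxilla (0.43 to 0.59, all but control distal maxilla 3). For Bmp7 in the mandible the same held (0.25 to 0.33, all but control proximal mandible 2). Adjusted p then ran up to 0.161. Markers of oral and dental epithelium were also higher distally, 5 of 7 in the mandible and 6 of 7 in the maxilla with medians of 1.5 and 2.41. Of all genes, 5.45% and 10.9% were called there in either direction. The part of these markers in the distal excess of Bmp4 and Bmp7 was not tested. Grem1 ran the other way, at -0.34 in the mandible and -0.47 ± 0.18 in the maxilla, where it was not called (adjusted p = 0.109) unless sample number was a fixed block (0.0422) or a random block (0.0297) or control proximal maxilla 3 was left out (-0.62, adjusted p = 0.0481).

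The cell type markers that moved with genotype did not move alike in the 4 regions. Of all genes, 16.0% and 19.9% were called at the distal and proximal ends of the mandible, and 2.96% and 10.5% at those of the maxilla. In the mean 25.2% of all genes were called higher and 15.3% lower, and 6.76% were called for a genotype effect that differed between the jaws. Cartilage markers were called lower for 6 of 8 genes at the distal and 2 at the proximal end of the mandible, and for 1 and 7 at those of the maxilla. Averaged over regions Matn3, a cartilage matrix protein, fell by 3.28 ± 0.32 and Comp fell by 3.01 ± 0.31, and of the bone genes Dmp1, an osteocyte matrix protein, fell by 3.96 ± 0.61 and Col1a1 by 1.05 ± 0.16. Epithelial markers were called higher at the proximal ends, for 2 of 7 genes in the mandible and 4 in the maxilla, and for 0 at the distal ends. The basal keratin Krt5 rose by 0.81 ± 0.20 and its regulator Trp63 by 0.64 ± 0.16 in the mean. In the distal maxilla both went the other way, Krt5 from 12.1 to 11.69 and Trp63 from 11.47 to 11.16. The median of the epithelial markers there was -0.41. In the mean, osteoclast markers fell for 5 of 5 genes, macrophage markers for 4 of 5 and muscle markers for 4 of 7, among them Atp6v0d2 (-1.70), Ptprc (-0.77) and Csf1r (-0.64), and Ckm (-1.58) and Myh8 (-1.62). By region, calls in these 3 lists came from the mandible, with 0 at either end of the maxilla. Their median genotype effects, mandible minus maxilla, were -1.45, -0.86 and -2.25, with 3 genes called lower in each list. The osteoclast gene Ocstamp was also called lower, but both its genotype means (5.93 and 4.98) lay under the filter level and its size is left out. It passed the filter through control mandible arrays alone, with highest signals of 6.67 distally and 7.45 proximally beside 5.47 or less in every other group. The filter thus favoured a fall of Ocstamp in the mutant, and the 5 of 5 osteoclast genes include it. Comp, Dmp1, Atp6v0d2, Ptprc, Ckm and Myh8 had mutant groups with means under the upper filter level, so the sizes of their falls are measured partly against background. Of 7 jaw mesenchyme genes 2 were called, both higher: Twist1 by 0.70 ± 0.04 and Prrx1 by 0.39 ± 0.06. That count is near the 25.2% of all genes called higher. The vascular receptor Kdr fell by 0.26, the 1 call among 5 endothelial genes, where 15.3% of all genes were called lower. Of 3 glial genes S100b, which cartilage also expresses, fell by 1.68 and Sox10 rose by 0.25, and of 5 neuron genes and 1 erythroid gene 0 were called. Bmp4 and Bmp7 rose in the distal mandible, where 0 epithelial markers were called (median 0.43), and Bmp7 in the proximal mandible, where 2 of 7 were called higher (median 0.83). The part of these tissue markers in the changes of the BMP genes was not tested.

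The other genes of the pathway are described in the mean effect, where 25.2% of all genes were called higher and 15.3% lower and the median change was 0.022. Their p-values, like the calls of the cell type markers, come from the fit that counted arrays as independent. With the regions of each sample number averaged first, fewer genes were called over the whole array, and Bmp4, Bmp7 and Grem1 lost their calls. Of 7 other BMP and GDF ligands tested, 2 fell and 0 rose, with a median of -0.10. Gdf10, also known as BMP3b, went from 11.49 to 10.96, a fall of 0.52 ± 0.08 (adjusted p = 7.13e-05), and Bmp8a from 6.61 to 6.23, near the filter level. Gdf5, a ligand of developing joints, fell by 1.39 ± 0.27 in the distal mandible (2.63-fold, adjusted p = 0.00169).

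Among 9 other secreted antagonists, 1 rose and 3 fell (median -0.10). Chrdl1, a chordin-like BMP antagonist, had the largest mean change of these, from 8.25 to 7.06, a fall of 1.19 ± 0.16 (adjusted p = 1.46e-05) in which the mutant distal mandible (6.08) lay under the filter level. Fstl3, a follistatin-like inhibitor of activins, fell by 0.19 ± 0.04 (adjusted p = 0.00197), and Nbl1, a member of the DAN family that also holds gremlin, rose by 0.42 ± 0.10 (1.34-fold, adjusted p = 0.00225). In single regions Sostdc1, which is strong in dental epithelium, rose by 0.91 ± 0.27 in the proximal maxilla (adjusted p = 0.0358). Sost, an osteocyte antagonist of Wnt signals, was called lower in the proximal mandible, where its mean was 7.13 in controls and 5.88, under the filter level, in mutants, so that no size is given; the control proximal mandible was its 1 group with a mean above that level.

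Proteases that mature the ligands or cleave chordin gave 1 call higher and 3 lower among 5 genes (median -0.16). Pcsk6, a proprotein convertase that processes TGF-beta family precursors, fell from 9.97 to 9.19, by 0.79 ± 0.08 (1.72-fold, adjusted p = 9.62e-07). Furin and Pcsk5, of the same enzyme family, fell by 0.17 ± 0.05 and 0.16 ± 0.05 (adjusted p = 0.00541 and 0.0132).

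Receptors and co-receptors moved both ways, 3 higher and 2 lower of 10 (median -0.012). The type II receptor gene Acvr2b rose by 0.46 ± 0.06 (adjusted p = 1.72e-05), the type I receptor gene Acvr1, which encodes ALK2, fell by 0.32 ± 0.05 (adjusted p = 2.7e-05), and Bmpr1a, the main type I receptor of BMP2 and BMP4, rose by 0.12 ± 0.03 (adjusted p = 0.00456). In the proximal mandible the co-receptor gene Rgma rose by 0.55 ± 0.15 (adjusted p = 0.0117) and Bmpr2 fell by 0.25 ± 0.07 (adjusted p = 0.0201). Of 7 intracellular transducers and inhibitors 4 rose and 0 fell (median 0.13). Smad1 and Smad5, which carry the BMP signal, rose by 0.12 ± 0.03 and 0.16 ± 0.04 (adjusted p = 0.00103 and 0.0016). The ubiquitin ligase gene Smurf1 rose by 0.23 ± 0.05 (adjusted p = 0.00137), and the inhibitory Smad6 rose by 0.48 ± 0.13 in the distal maxilla (adjusted p = 0.0459).

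Genes known to respond to BMP signals gave 6 calls higher and 0 lower of 11 tested, with a median of 0.23. Id1 went from 11.84 to 12.22, a rise of 0.37 ± 0.03 (1.3-fold, adjusted p = 5.53e-08), Msx2 from 8.62 to 9.43, a rise of 0.81 ± 0.12 (1.75-fold, adjusted p = 2.07e-05), and Gata3 from 6.61 to 7.76, a rise of 1.15 ± 0.15 (adjusted p = 9.2e-06) in which both control mandible means (5.90 and 5.09) lay under the filter level. By region 4 were called higher and 1, Dlx5 (-0.56, named after its value was seen), lower in the distal mandible, where Id3 rose by 0.43 ± 0.09 and Id2 by 0.32 ± 0.10 (adjusted p = 0.00426 and 0.0358). The proximal mandible had 3 higher, the distal maxilla 1 and the proximal maxilla 2, with 0 lower in each. Over all genes tested, those regions had 1333, 257 and 802 calls higher and 1444, 156 and 668 lower, in that order. The distal mandible had 1118 higher and 1113 lower over all genes. Several of the response genes have other inputs, and epithelium and neural tissue express Gata3. The remaining calls of the pathway lists in the mean effect, named here after their values were seen, were higher for Bmp1 (0.16), Rgma (0.26), Smad6 (0.27), Id3 (0.29), Id2 (0.26) and Atoh8 (0.23) and lower for Fstl1 (-0.097) and Bmpr2 (-0.12).

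**Figure D5:**
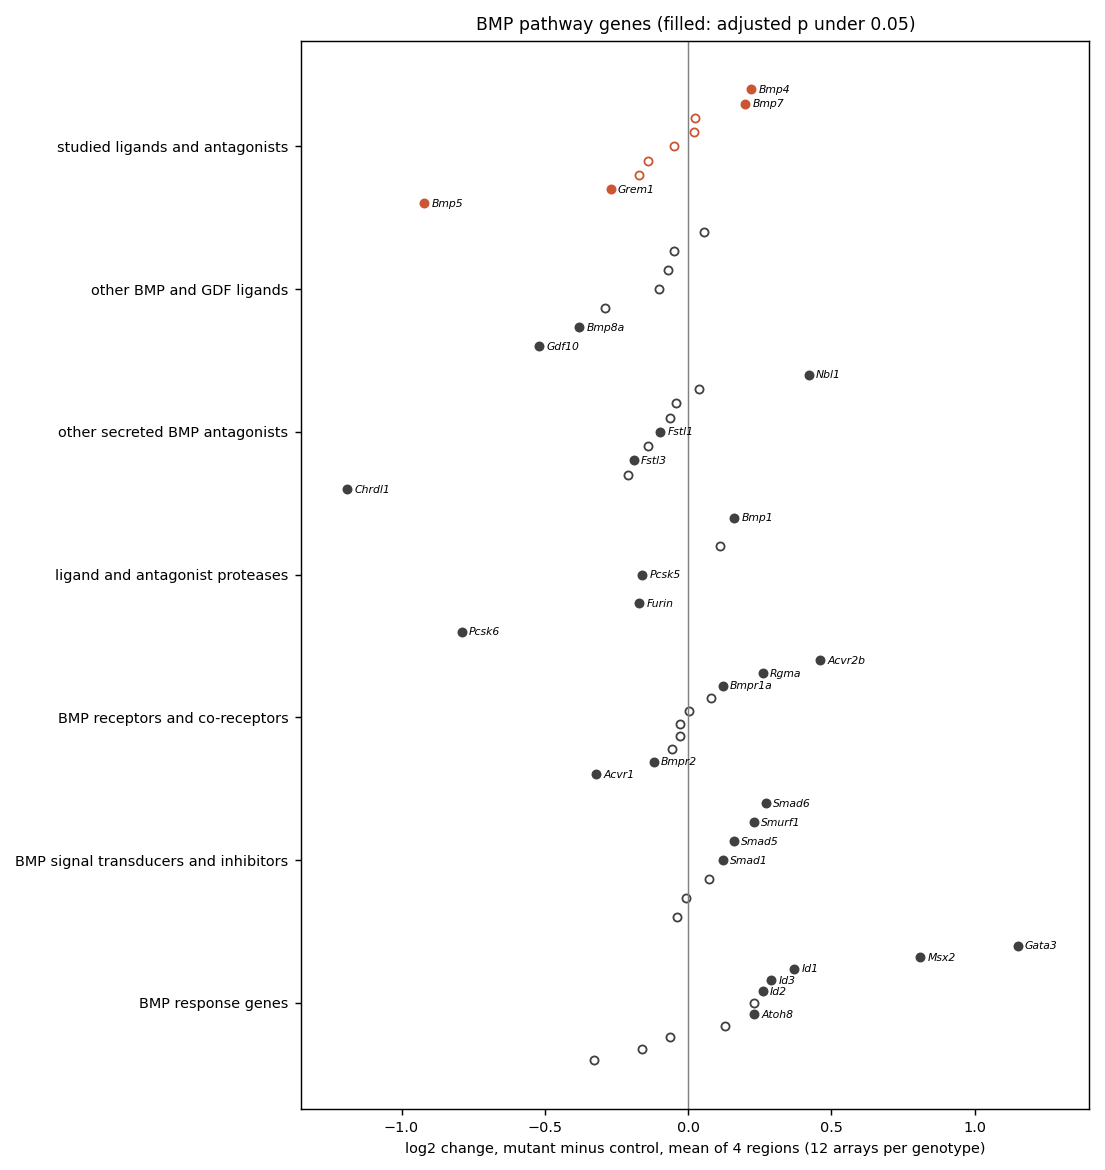
Log2 change, mutant minus control, averaged over 4 regions (12 arrays per genotype), 1 point per gene, in 7 groups of BMP pathway genes set apart on the vertical axis; filled and named points have an adjusted p under 0.05. Bmp5 (-0.92), Chrdl1 (-1.19) and Pcsk6 (-0.79) lie far to the left, and the filled points among response genes all lie to the right of 0.

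The genes most alike in pattern over the 24 arrays were found by Pearson correlation of log2 signals among all tested genes, as a description with no test, since arrays share their groups. Bmp5 was nearest to the sulphate transporter gene Slc26a2 (r = 0.929) and to Ccn2 (0.918), and these remained at 0.82 and 0.83 after group means were removed. The spread of Bmp5 within groups was largest in the control distal maxilla (standard deviation 0.47, array 3 at 9.57). How far the values within groups rest on that array was not tested. Bmp4 was nearest to Msx2 (0.912; 0.79 after group means were removed) and Dlg2 (0.911; 0.58). Grem1 was nearest to Pabpc4 (0.922) and Meox1 (0.916), Bambi to Kctd14 (0.921) and Ankrd6 (0.893), and Bmp7 to Bnipl (0.911) and Prxl2a (0.909). After group means were removed the last pair dropped to -0.04 and 0.13, so the likeness lay between groups. Bmp6 was nearest to 9130024F11Rik (0.884) and the enamel matrix gene Ambn (0.865), and Chrd to the muscle genes Jph2 and Art1 (0.883 each). Bmp2 and Nog had looser matches and shared the nearest, Hs3st3a1 (0.762 and 0.76), followed by Dtymk (0.74) for Bmp2 and Vps37b (0.744) for Nog.

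Among the 9 genes themselves, Bambi ran with Bmp6 (r = 0.81) and with Bmp4 (0.80), and Bmp7 ran against Grem1 (-0.73). Within groups, after group means were removed, Bambi and Bmp4 were at 0.87 and Bmp7 and Grem1 at 0.64. The last pair was thus negative over all arrays and positive within groups. Control array 2 was the highest of its group for both Bmp7 and Grem1 in every region. Among mutants, the same array was highest for both genes in the proximal maxilla alone. A correlation within each genotype alone was not computed. Bmp5 and Nog were at 0.16 over all arrays and at 0.82 within groups, where control distal maxilla 3 was the lowest array of its group in both genes.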

How the data were processed

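Biotin-labelled cRNA was hybridised to 24 single-colour mouse arrays. The deposited values are log2 signals normalized by the authors with RMA, per the submitters' processing notes; the RMA version is not given in the sources used here, and the log base was read from the range, 3.29 to 14.86. Of 45101 probe sets, 34945 carried 1 symbol in the array annotation, 932 several and 9211 none; names were checked against RefSeq (GRCm38.p6), which matched 34754. The filter kept a gene whose signal was over its array's 40th percentile in 3 or more arrays.

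In limma 3.58.1 every group received its own mean, over all 24 arrays (R 4.3.3; eBayes with a trend, two-sided, Benjamini-Hochberg adjustment over 13942 genes), and 10 comparisons were taken from it. Errors are standard errors of the fit. Regional changes share no arrays with each other, but all enter the mean effect and the interactions. Precision is limited by how few arrays there are. The script was tested on simulated data.

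The genes and lists were chosen with earlier results of these data known. All 10 symbols were named; from each pathway list up to 3 genes by moderated statistic in the mean effect and 2 in a region, from each cell type list 2, and for each gene its 2 nearest by correlation. Alternatives were quantile normalization, other filters, the mean of probe sets, array weights, blocks, regions averaged first, only the arrays compared, and leaving out arrays.

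Whether sample numbers pair arrays was checked by correlating residuals of same-numbered arrays across genes. The 3 values were all over 0.1 in the mean effect (0.16, 0.13 and 0.36), between control jaws (0.55, 0.26 and 0.12) and between control mandible ends (0.68, 0.33 and 0.50), and not elsewhere. The labels do not say what a number marks. Within a genotype Xist followed the number in all 4 regions, both maxilla ends included. Across genotypes it did not: Y-linked transcripts were low in controls numbered 1 and high in mutants numbered 1. A number is thus not known to pair a control with a mutant. With the number as a fixed block, the replicate pairing moved the count over all genes between control mandible ends from 760 to 1156.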

Additional observations from a re-analysis of the deposited data

Results flagged for a closer look

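The genotype effect differed between the jaws, by the interaction term of the limma fit over all arrays, for 2 of the 9 genes. For Grem1 the difference, mandible minus maxilla, was -0.79 ± 0.18 on the log2 scale (adjusted p = 0.0134). For Bmp7 it was 0.30 ± 0.08 (adjusted p = 0.0303), and 0.15 (adjusted p = 0.459) with the mean of its 3 probe sets.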

How the results depend on the processing

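The 26 calls of a gene in a comparison were recomputed 515 times under the alternatives, and 448 values kept direction and call, 67 kept the direction without the call and 0 reversed. Of 64 results that were not called, 9 were called under some alternative with all arrays and 20 changed sign somewhere. In the distal maxilla 0 of the 9 genes were called, in place of 1, with no filter, with the mean of probe sets, with the random block and with only the arrays compared. The proximal maxilla had 1 call, in place of 2, with array weights, with only the arrays compared and without both mutant maxilla arrays numbered 3 (an alternative added after seeing the data for that comparison and the interactions). The proximal mandible had 3, in place of 4, with the mean of probe sets and with only the arrays compared, and the proximal maxilla had 3 with the fixed block. The distal mandible had 4, in place of 3, with array weights, either block and only the arrays compared. The mean effect, 4, had 5 with quantile normalization and with array weights, 2 with the random block and 1 with regions averaged first; control jaws, 6, had 7 with quantile normalization and with array weights; the jaw interaction had 1 with the mean of probe sets; the end interaction had 1 with the random block. Between ends, the control mandible had 1 with the mean of probe sets 3 with array weights and 4 with only the arrays compared, and the control maxilla had 3 with array weights and either block and 1 with only the arrays compared. Leaving out 1 array gave 2 to 3 calls at the distal and 4 at the proximal end of the mandible, 0 to 1 and 1 to 3 at those of the maxilla, 3 to 4 in the mean, 1 to 2 and 0 to 1 in the jaw and end interactions, 5 to 7 between control jaws, 0 to 1 between control mandible ends and 1 to 2 between control maxilla ends. With the replicate number as a fixed block the counts were 4, 6 and 2 in the mean effect, control jaws and control mandible ends. No call of the 9 genes changed there. These comparisons were picked by the correlation of residuals of same-numbered arrays. In the mean effect that does not establish a pairing, since a number is not known to pair a control with a mutant. Between control maxilla ends Xist also followed the number, though the residuals did not pass that check.

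Over all genes the counts of calls moved by over 1.5 times in these cases. Distal mandible, 2231 calls: array weights 4268. Distal maxilla, 413: weights 1194, fixed block 1087, only the arrays compared 23, both arrays numbered 3 left out 1113. Proximal maxilla, 1470: fixed block 2397, only the arrays compared 320, both left out 783. Mean, 5655: regions averaged first 2114. Jaw interaction, 942: fixed block 1522, random block 1704. End interaction, 16: 9 with no filter, 8 with the mean of probe sets, 30, 48 and 67 with weights, fixed and random block, 49 with both left out. Control mandible ends, 760: weights 2547, fixed 1156, random 1265, only the arrays compared 1870. Control maxilla ends, 1518: random block 2292, only the arrays compared 841. Leaving out 1 array gave 1243 to 1825, 47 to 750, 615 to 1439, 579 to 1226, 1 to 42, 362 to 528 and 699 to 1782 in the distal mandible, distal maxilla, proximal maxilla, jaw and end interactions and control mandible and maxilla ends. Calls in the distal maxilla were 62.2% higher, and 49.9% with quantile normalization.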
